A study of Mus musculus with 14 samples.

Results

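Toll-like receptors, their co-receptors and the proteins that couple them to signalling were followed in wounded mouse fibroblasts given a skin extract. The 10 genes were the cell surface receptors Tlr1, Tlr2, Tlr4 and Tlr6, the endosomal receptor Tlr3, the co-receptors Cd14 and Ly96, the adaptors Myd88 and Ticam1, and the kinase-like inhibitor Irak3. They were chosen by symbol among the 43472 genes of the deposited tables, in each of which every symbol was listed once. Primary fibroblasts had been isolated from the tail tips of C57BL/6 mice, grown as a monolayer in serum-containing medium and scratched, in the untreated as in the treated cultures. The treated cells received autologous micrograft (AMG), a filtered suspension of disrupted mouse skin diluted 1:10 in the growth medium, which the study describes as depleted of cells. RNA was sequenced from 14 libraries. Replicate 1 of the Untreated and AMG-treated groups was taken at 1, 5, 12 and 24 h, with 1 library per group and time, and replicates 2, 3 and 4 were taken at 5 h only. The labels give no age of the mice, and do not say how many animals the cells or the extract came from. The p-values below therefore measure the spread between these libraries.

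Toll-like receptors recognise molecules of microbes and, as has been proposed, of damaged tissue. Tlr2 pairs with Tlr1 or Tlr6 to bind lipoproteins, Tlr4 binds lipopolysaccharide in a complex with Ly96 (also called MD-2), and Cd14 hands ligands to both, while Tlr3 binds double-stranded RNA in endosomes. MyD88 carries the signal of every receptor named here except Tlr3 to NF-kB and AP-1, Ticam1 (TRIF) serves Tlr3 and Tlr4 and leads to type I interferon, and Irak3 (IRAK-M) holds back the kinases downstream of MyD88. Fibroblasts are known to carry several of these receptors and to answer them with chemokines.

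Values are normalised counts, that is reads per gene divided by a size factor of the library. The tables of replicate 1 and of replicates 2 to 4 were scaled separately, so levels were not compared between them. Libraries held 12545537 to 34696529 reads, and 3 reads were taken as the floor of detection. The fibroblast label fitted the markers, since all 9 fibroblast markers were found in every library, with a summed normalised count of 217865 to 626065. RNA of leukocytes, which carry many of these receptors, was low but not even. Of 18 leukocyte markers, 11 to 16 had a read in a library. At 5 h their sum was 288, 198 and 1618 in the untreated replicates 2, 3 and 4 and 251, 285 and 1504 in the treated ones. In replicate 1 it was 1619 untreated and 1457 treated at 1 h, 2262 and 630.5 at 5 h, 1324 and 640.4 at 12 h, and 1308 and 621 at 24 h. Lyz2, a lysozyme gene of myeloid cells, ranged from 76.6 to 1541 normalised counts, Ptprc (CD45) from 0 to 12.3, and Cd3e was at 0 in every library. The 8 keratinocyte markers summed to 25.1 to 186 normalised counts, of which Krt5 and Krt14 reached at most 2.20 and 3.48, and the 6 endothelial markers to 11.5 to 251. The part of such RNA in the levels below was not tested, and in bulk RNA fewer cells of a type and less RNA per cell cannot be told apart.

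Per transcript length, taken from the longest transcript of each gene in the basic GENCODE set, the members differed widely in the untreated cells. These levels depend on the transcript taken, and for Ly96 it had 632 bases beside 1021 exonic bases in all. Myd88 was the highest, at 244 normalised counts per kilobase (± 30.7 SD, n = 3), and its 3 libraries did not overlap those of Ly96, the next in order, at 157 ± 29.2. Ticam1 followed at 142 ± 30.9, Tlr4 at 124 ± 19.3, Cd14 at 81.2 ± 32.1 and Tlr2 at 61.4 ± 30.3, with overlapping ranges between each neighbour. Lower still lay Tlr3 at 28.5 ± 4.97, Irak3 at 19.1 ± 6.72 and Tlr6 at 11.9 ± 3.54, again with overlap between neighbours, and Tlr1 was at 4.92 ± 2.12, below every library of Tlr6. With AMG the order differed: Myd88 at 337 ± 40.7 was followed by Cd14 at 307 ± 107, Tlr2 at 214 ± 150, Ticam1 at 188 ± 13 and Ly96 at 178 ± 26.3, whose ranges overlapped from neighbour to neighbour. Tlr4 came next at 72 ± 25.2, then Irak3 at 44.4 ± 3.62, Tlr3 at 20.1 ± 6.57, Tlr6 at 8.01 ± 2.73 and Tlr1 at 1.27 ± 0.873, and from Ly96 down no range overlapped the next.

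**Figure D1:**
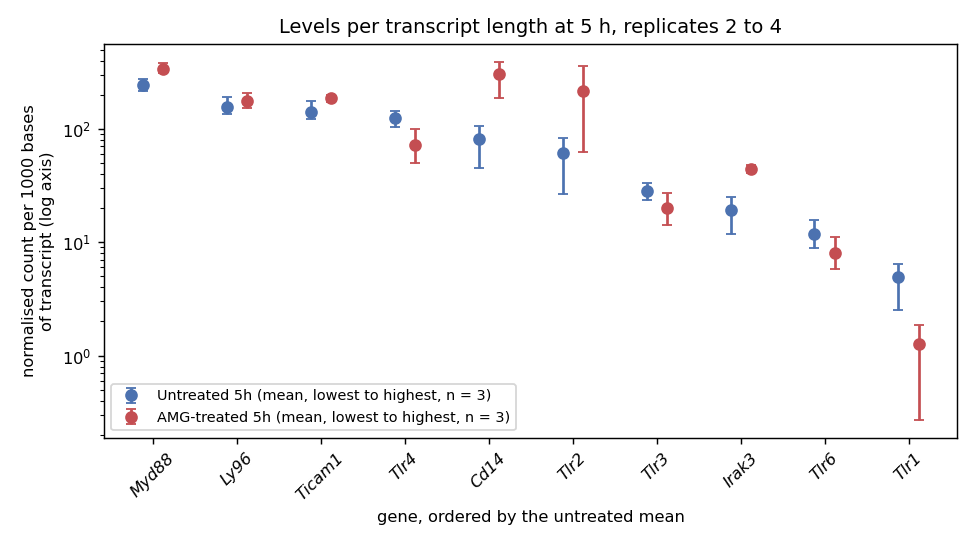
Normalised counts per kilobase of transcript on a log axis for the 10 genes at 5 h in replicates 2 to 4, with points at the mean and bars from the lowest to the highest of 3 libraries, untreated in blue and AMG-treated in red. Cd14 and Tlr2 moved from 81.2 and 61.4 in the untreated cells to 307 and 214 with AMG, above Tlr4, which stood at 124 and 72.

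The comparison at 5 h asked which of these genes differed between AMG-treated and untreated cells. In replicates 2 to 4, Cd14, Tlr2, Irak3, Myd88, Ticam1 and Ly96 were higher with AMG in all 3 pairs of libraries that share a replicate number, and Tlr4, Tlr3 and Tlr6 were lower in all 3. None of the 9 genes that reached a mean of 10 passed an adjusted p of 0.05 in limma's test of 3 against 3 libraries without a block, which 1.24% of all 13096 genes tested did. At an unadjusted p under 0.05 the count was 4 of 9, beside 23.1% of all genes, while edgeR on the recovered reads passed 0 (1.03% of all genes) and DESeq2 passed 3 (Cd14, Tlr2 and Irak3, beside 10.9%). Libraries with the same replicate number deviated together, and with that number as a block 6 of the 9 passed in limma, 66.7% beside 37.2% of all genes tested. The count was 6 as well with edgeR and the block, beside 37% of all genes, and with the block after a correction for transcript length, beside 33.4%. Of these 5 were higher (Cd14, Tlr2, Irak3, Myd88 and Ticam1, beside 17.9% of all genes) and 1 lower (Tlr4, beside 19.3%).

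The groups did not overlap for 4 of the 9, beside 28.7% of all genes tested. These were Cd14, Myd88 and Irak3, higher (beside 15.1%), and Tlr4, lower (beside 13.6%). One direction in all 3 pairs, seen for 9 of 9, was the case for 66.4% of all genes, with 6 of 9 higher beside 31.9% and 3 of 9 lower beside 34.5%. The median log2 fold change of the 9 was 0.43 and that of all genes tested was -0.02, and the median size of the change regardless of direction was 0.57 and 0.33. Tlr1, with a mean of 9.37, was too low to enter this test.

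**Figure D2:**
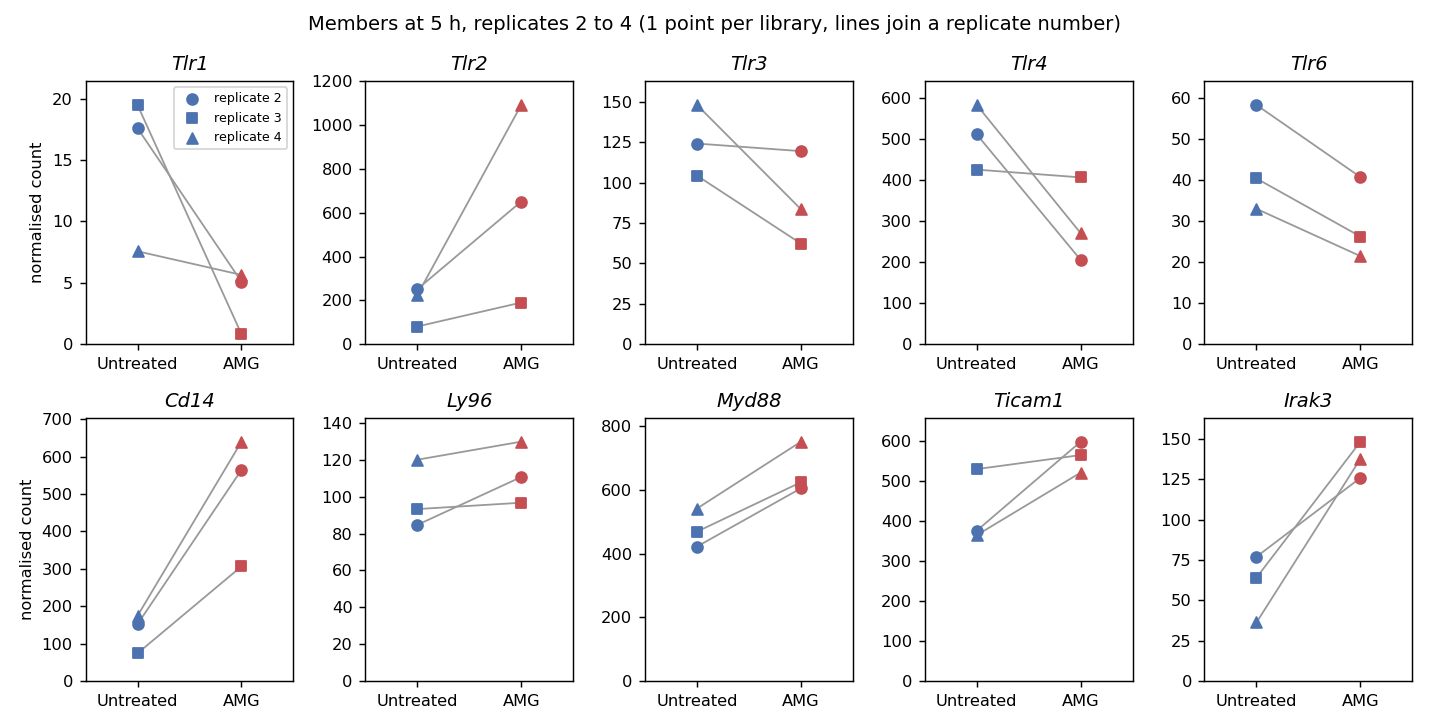
Normalised counts of the 10 genes at 5 h in replicates 2 to 4, 1 point per library, with lines joining libraries of the same replicate number and the axis of each gene starting at 0. Cd14, Irak3 and Myd88 were higher in each treated library than in any untreated one, Tlr4 and Tlr1 were lower in each, and Tlr2 was lowest in replicate 3 of both groups.

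Cd14, the co-receptor that passes lipopolysaccharide and lipoproteins to Tlr4 and Tlr2, had the largest fold increase in mean of the tested members at 5 h. Its normalised counts were 152, 73.8 and 174 in the untreated replicates 2, 3 and 4 and 565, 307 and 640.4 with AMG. Replicate 3 was the lowest in both groups, and the lowest treated Cd14 library lay above the highest untreated one. The means were 133 ± 52.7 and 504 ± 175 (SD, n = 3 each), a fold of 3.78, and the log2 fold changes within the pairs were 1.89, 2.04 and 1.87. The log2 fold change was 1.93 (SE 0.41) with a limma adjusted p of 0.0740 without the block and 3.17e-05 with it. In edgeR's quasi-likelihood test over all 4 replicates at 5 h with the block, Cd14 was 1 of the 2 members that passed, the other being Irak3, beside 3.78% of all genes tested. The Cd14 gene lies on chromosome 18 of GRCm38 (the build called mm10 by the authors).

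Ly96, the small secreted protein that completes the Tlr4 receptor, showed no difference beyond the spread. Its normalised counts were 84.7, 93.3 and 120.1 untreated and 111, 96.7 and 129.9 with AMG, with overlapping groups. The log2 fold change was 0.18 (SE 0.24, limma adjusted p = 0.681 without and 0.487 with the block), and the 95% interval with the block ran from -0.25 to 0.62. Ly96 (chr1:16688051-16709611) has the shortest transcript of the 10, 632 bases, and its log2 fold change was -0.27 after each library was corrected for a trend on transcript length. No direction was therefore drawn for it.

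Tlr2, the receptor that binds lipoproteins together with Tlr1 or Tlr6, was higher with AMG but differed strongly between replicates. It had 251, 80.8 and 224 normalised counts untreated and 651, 190.2 and 1092 with AMG. Replicates 2 and 4 were high in both groups and replicate 3 was low in both, so that treated replicate 3 lay below the untreated replicates 2 and 4. The means were 185 ± 91.4 and 645 ± 451 (n = 3 each), and the log2 fold change was 1.63 (SE 0.70, limma adjusted p = 0.226). With the replicate number as a block, the SE fell to 0.20 and the adjusted p to 0.000575, and Tlr2 passed whichever of the 3 replicate numbers was left out. Replicate 1 at 5 h went the other way, with 103 normalised counts untreated and 60.3 with AMG.

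The Tlr2 gene lies at chr3:83836272-83841767 on the minus strand of GRCm38. The stretch before its RefSeq start that no annotated exon covers is printed because Tlr2 was among the members that rose in the blocked fit and because it holds a match to the NF-kB consensus, shown in capitals, which reads the same on both strands. It lies at chr3:83841768-83841858 (GRCm38.p6, RefSeq), and the match spans positions -172 to -163 counted from the RefSeq start.
Tlr2: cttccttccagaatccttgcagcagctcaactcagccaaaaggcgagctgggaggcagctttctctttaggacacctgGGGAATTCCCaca
Windows of 250 bases before a start were given for 7 of the 10 members (Tlr1, Tlr2, Tlr3, Tlr6, Myd88, Ticam1 and Irak3), and were searched on both strands for the NF-kB consensus, TGANTCA (AP-1), 2 copies of GAAA with any 2 bases between them (the interferon-stimulated response element, ISRE) and GAGGAA (PU.1). The NF-kB consensus was found for Tlr2 and Tlr3, and in 5.00% of all 32851 windows. TGANTCA was found for none of the 7 members and in 6.75% of all windows. GAGGAA was found for Tlr1 (1 of its 2 windows) and Ticam1, and in 23.3% of all windows. Tlr1, Tlr6 and Irak3 had 2 windows each, so a match counted by gene and a share counted by window are unlike measures. These matches describe letters and not bound sites.

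Tlr6 and Tlr1, the alternative partners of Tlr2, were both lower with AMG in every pair measured. Tlr6 had 58.3, 40.4 and 33.0 normalised counts untreated and 40.7, 26.2 and 21.5 with AMG at 5 h. The groups overlapped, since treated replicate 2 lay above untreated replicates 3 and 4. Its log2 fold change was -0.57 (SE 0.39) with a limma adjusted p of 0.409 without and 0.143 with the block, whose 95% interval ran from -1.21 to 0.07, so the difference did not hold up in either fit. Tlr1 had 17.6, 19.5 and 7.57 normalised counts untreated (16, 14 and 14 reads) and 5.09, 0.820 and 5.65 with AMG (4, 1 and 5 reads). The treated libraries lay below the untreated ones, at 1 to 5 reads against a floor of 3. When all genes with a read were tested, the limma adjusted p of Tlr1 was 0.276. Tlr1 (chr5:64924679-64933563) and Tlr6 (chr5:64952031-64960097) are neighbours and near copies in part. Of the 50-base windows along the Tlr1 transcript, 15.3% also occurred in Tlr6, and of those along Tlr6, 12.6% occurred in Tlr1 or Ctsq, so reads from those windows would not align to 1 place only.

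Of the 2 windows before a RefSeq start of Tlr6, 1 is shown because it holds 2 overlapping ISRE matches on the opposite strand, in capitals. That motif was found in 2.98% of all windows. The shown window lies at chr5:64959167-64959416 on the minus strand, within the Tlr6 span given above. The other, at chr5:64960049-64960298, held no match to any motif searched.
Tlr6: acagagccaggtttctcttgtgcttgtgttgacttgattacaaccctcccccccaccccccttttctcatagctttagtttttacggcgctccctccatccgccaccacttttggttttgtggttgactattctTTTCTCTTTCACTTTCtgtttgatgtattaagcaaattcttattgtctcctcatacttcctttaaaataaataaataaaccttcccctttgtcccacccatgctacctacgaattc

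Tlr4, the lipopolysaccharide receptor, was lower with AMG in replicates 2 to 4. The untreated libraries had 510.4, 425 and 582 normalised counts and the treated ones 205, 406 and 269.9. The groups did not overlap, but in replicate 3 the difference was small, with 425 untreated and 406 treated. The means were 506 ± 78.8 and 294 ± 103 (n = 3 each), and the log2 fold change was -0.83 (SE 0.27, limma adjusted p = 0.149), with an adjusted p of 0.0154 with the block. Without replicate 2 the blocked fit no longer passed Tlr4. Replicate 1 at 5 h went the other way, from 200 untreated to 255 treated. That log2 ratio was 0.35, and 0.12 after correction for transcript length. Tlr4 lies at chr4:66827584-66930284.

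The ratio of Tlr2 to Tlr4, each per transcript length, compares the 2 surface receptors within a library and does not depend on its scaling. It was 0.665, 0.257 and 0.520 in the untreated replicates 2, 3 and 4 and 4.30, 0.634 and 5.47 with AMG. Tlr4 was the higher of the 2 in every untreated library, and Tlr2 was the higher in treated replicates 2 and 4 but not in 3. The mean log2 ratio differed by 2.46 (SD 1.70 treated and 0.71 untreated, n = 3 each), with p = 0.2 in a two-sided exact permutation test. This test leaves out the pairing by replicate number and cannot go below 0.1, so it could not pass. Within the pairs the ratio was higher with AMG in 3 of 3. In replicate 1 the ratio was 0.664 untreated and 2.15 treated at 1 h, 0.699 and 0.320 at 5 h, 0.634 and 0.710 at 12 h, and 0.476 and 1.38 at 24 h.

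Tlr3, the receptor for double-stranded RNA, had 124, 104 and 148 normalised counts untreated and 119.6, 62.3 and 83.6 with AMG. Treated replicate 2 lay within the untreated range. A log2 fold change of -0.54 (SE 0.30) did not pass, with a limma adjusted p of 0.323 without and 0.0808 with the block. Tlr3 lies at chr8:45395665-45411080, and 381 of its exonic bases are shared with Gm45542 on the opposite strand. Whether the counting used strand was not stated, so reads of such pairs cannot be told apart. The same holds for Myd88, which shares 290 bases with Acaa1a, and Irak3, which shares 220 with Tmbim4 and Gm47009.

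Myd88, the adaptor of every member receptor except Tlr3, was higher with AMG by a small and even step. It had 422, 469 and 542 normalised counts untreated and 606, 625 and 752 with AMG. All 3 treated libraries lay above the 3 untreated ones, and replicate 4 was the highest in both groups. The means were 478 ± 60.3 and 661 ± 79.7 (n = 3 each), a fold of 1.38. The log2 fold change was 0.47 (SE 0.16, limma adjusted p = 0.155 without and 0.0100 with the block, 95% interval with the block 0.22 to 0.71). Ticam1, the adaptor of Tlr3 and of internalised Tlr4, had 376, 531 and 365 normalised counts untreated and 599, 566 and 522 with AMG. Here untreated replicate 3 lay above treated replicate 4. The log2 fold change was 0.43 (SE 0.18, limma adjusted p = 0.224 without and 0.0371 with the block). Neither adaptor passed the blocked fit when replicate 2 or replicate 4 was left out.

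Myd88 lies at chr9:119335934-119341411 and Ticam1 at chr17:56269319-56276786, both on the minus strand. The stretch before the RefSeq start of Myd88 is shown for its ISRE match, in capitals, at positions -40 to -31 from the start. It lies at chr9:119340042-119340268 (GRCm38.p6, RefSeq).
Myd88: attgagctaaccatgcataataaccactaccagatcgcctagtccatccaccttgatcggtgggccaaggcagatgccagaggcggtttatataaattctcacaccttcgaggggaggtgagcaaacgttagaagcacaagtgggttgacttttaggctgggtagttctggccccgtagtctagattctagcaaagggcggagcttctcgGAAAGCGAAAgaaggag
Of the 7 members with a window, the ISRE was found for Myd88, which was higher with AMG at 5 h. It was also found in 1 of the 2 windows of Tlr6, which was lower in each pair.

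Irak3, the pseudokinase that restrains MyD88 signalling, was higher with AMG and came to nearly the same level in each treated library. It had 77.0, 64.1 and 36.2 normalised counts untreated and 126, 148 and 138 with AMG. The groups did not overlap, and the treated SD was 11.2 beside 20.8 in the untreated libraries. The means were 59.1 and 137 (n = 3 each), a fold of 2.32. The log2 fold change was 1.27 (SE 0.32), with a limma adjusted p of 0.102 without and 0.00557 with the block, and the 95% interval with the block ran from 0.69 to 1.84. Irak3 lies at chr10:120141648-120202130. With the block, Cd14, Tlr2 and Irak3 passed whichever replicate number was left out.

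Replicate 1 gave the course over 1, 5, 12 and 24 h, with 1 library per group and time and hence no test. Intervals below are exact 95% binomial intervals of the ratio of reads and cover counting error only. Cd14 was higher with AMG at every time, with the largest ratio at 24 h. It had 210.1, 226, 123 and 88.8 normalised counts untreated at 1, 5, 12 and 24 h and 1014, 549, 694 and 713 with AMG. The untreated level was lowest at 24 h, while the treated level, and with it the difference in normalised counts, was highest at 1 h. The fold was 4.83 (4.14 to 5.63), 2.43 (2.02 to 2.94), 5.64 (4.77 to 6.71) and 8.02 (6.60 to 9.84). As log2 ratios these were 2.27, 1.28, 2.49 and 2.99, and 1.84, 1.75, 2.60 and 2.85 after correction for transcript length. The step down from 1 to 5 h was thus small after that correction. Cd14 was the only member with a log2 ratio above 1 at all 4 times, which held for 0.956% of the 13498 genes with a mean of 10 in this table.

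Irak3 had 294, 143, 213 and 235 normalised counts untreated and 421, 419, 421 and 350.1 with AMG. The treated level was 419 to 421 up to 12 h while the untreated one dipped at 5 h, where the fold was the highest at 2.93 (2.34 to 3.72). Myd88 had 597, 888, 652 and 624 normalised counts untreated and 810.3, 999, 869 and 851 with AMG, so that both groups were highest at 5 h and the fold stayed between 1.12 and 1.36. These 3 genes were above their untreated library at all 4 times, beside 7.22% of all genes.

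Tlr6 was lower with AMG at every time, and the ratio was lower at each later time. It had 51.0, 72.1, 85.6 and 54.4 normalised counts untreated and 45.2, 30.2, 29.5 and 9.90 with AMG. The fold was 0.887 (0.536 to 1.43) at 1 h, which counting error alone allows, and 0.418 (0.265 to 0.659), 0.345 (0.224 to 0.516) and 0.182 (0.0870 to 0.346) at 5, 12 and 24 h. At 24 h the treated library held 11 reads of Tlr6 and the untreated one 71. A value below the untreated library at all 4 times was seen for 8.05% of all genes. Tlr1 had 6, 2, 7 and 6 reads untreated and 0, 1, 1 and 0 with AMG. All 4 treated libraries were under the floor of 3 reads, and no fold is given. The summed leukocyte markers of replicate 1 were lower with AMG at each time as well, and their part in the Tlr6 and Tlr1 values was not tested.

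The other receptors lay above the untreated library at some times and below it at others. Tlr2 had 141, 103, 182 and 181 normalised counts untreated and 254, 60.3, 322 and 597 with AMG. It was higher with AMG at 1, 12 and 24 h, with a fold of 3.30 (2.84 to 3.85) at 24 h, and lower at 5 h, at 0.584 (0.414 to 0.828). Tlr4 had 287, 200, 389 and 514 normalised counts untreated and 160.0, 255, 614 and 583 with AMG. Its fold was 0.558 (0.438 to 0.706) at 1 h and 1.58 (1.41 to 1.77) at 12 h, and levels were higher at 12 and 24 h than at 1 and 5 h in both groups. Tlr3 had 69.4, 9.83, 109 and 153 normalised counts untreated and 38.3, 41.8, 169.6 and 81.9 with AMG. Its fold of 4.25 (1.83 to 12.1) at 5 h rested on 6 reads in the untreated library.

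Ticam1 had 592, 307, 512 and 613 normalised counts untreated and 546, 527, 477 and 594 with AMG, and stood apart from 1 only at 5 h, with a fold of 1.72 (1.46 to 2.03). Ly96 had 116, 202, 124 and 126 normalised counts untreated and 217, 155, 158 and 170.1 with AMG. Its log2 ratio was 0.90 at 1 h and -0.38 at 5 h, and -0.32 and 0.73 after correction for transcript length. Those 2 times include the libraries that stood apart in this table, where the 80 ribosomal protein genes took 4.92% (AMG-treated at 1 h) and 6.77% (Untreated at 5 h) of the reads beside 2.2% to 3.3% in the other 12. The summed keratinocyte markers were also highest in these libraries, at 186 and 180.3. Untreated Tlr2, Tlr3, Tlr4, Ticam1 and Irak3 were each at their lowest in that 5 h library. The part of the composition of these libraries in the ratios at 1 h and 5 h was not tested.

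**Figure D3:**
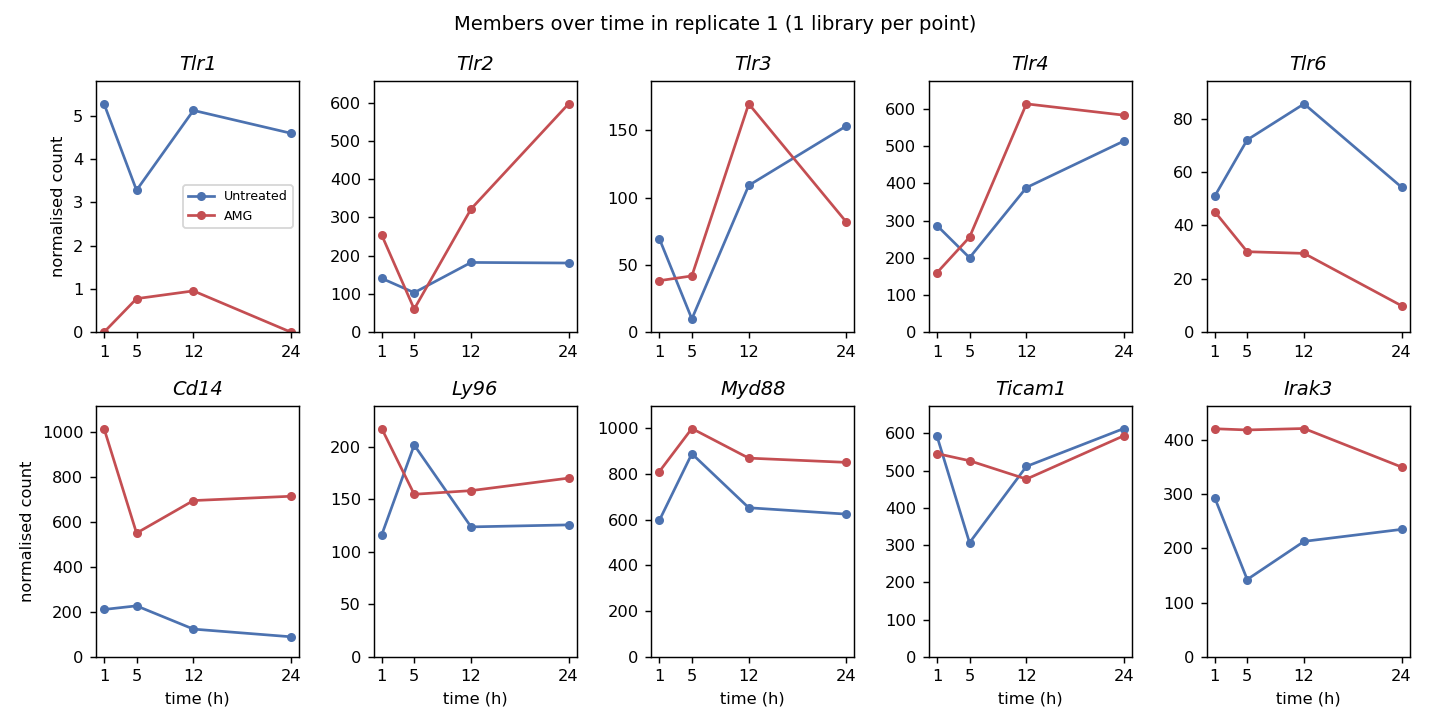
Normalised counts of the 10 genes in replicate 1 against time in hours, 1 library per point, untreated in blue and AMG-treated in red. The Cd14, Irak3 and Myd88 lines of the treated cells ran above the untreated ones at each of the 4 times and the Tlr6 and Tlr1 lines below, whereas the Tlr2, Tlr3, Tlr4, Ticam1 and Ly96 lines crossed.

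Members past a log2 ratio of 1 or -1 in replicate 1 were counted at each time, beside the share of all genes. A log2 ratio above 1 was seen at 1 h for 1 of 9 members (Cd14, beside 11.3% of all genes), at 5 h for 3 (Cd14, Irak3 and Tlr3, beside 13.3%), at 12 h for 1 (Cd14, beside 5.93%) and at 24 h for 2 (Cd14 and Tlr2, beside 6.05%). A log2 ratio below -1 was seen for Tlr6 alone, at 5 h (beside 12.6%), 12 h (6.9%) and 24 h (8.05%), and for 0 of 9 at 1 h (10.7%). Over the 7 pairs of both tables, treated was higher in 7 of 7 for Cd14, Irak3 and Myd88 (3 of 9 members, beside 5.36% of all genes) and lower in 7 of 7 for Tlr6 (1 of 9, beside 5.68%). So 4 of 9 members kept 1 direction, beside 11% of the 12844 genes with a mean of 10 in both tables. Treated was higher in 6 of 7 pairs for Tlr2 and Ly96, in 4 for Ticam1, in 3 for Tlr4 and in 2 for Tlr3. The libraries of 1 table share a scaling, and the 4 times of replicate 1 are not independent replicates.

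**Figure D4:**
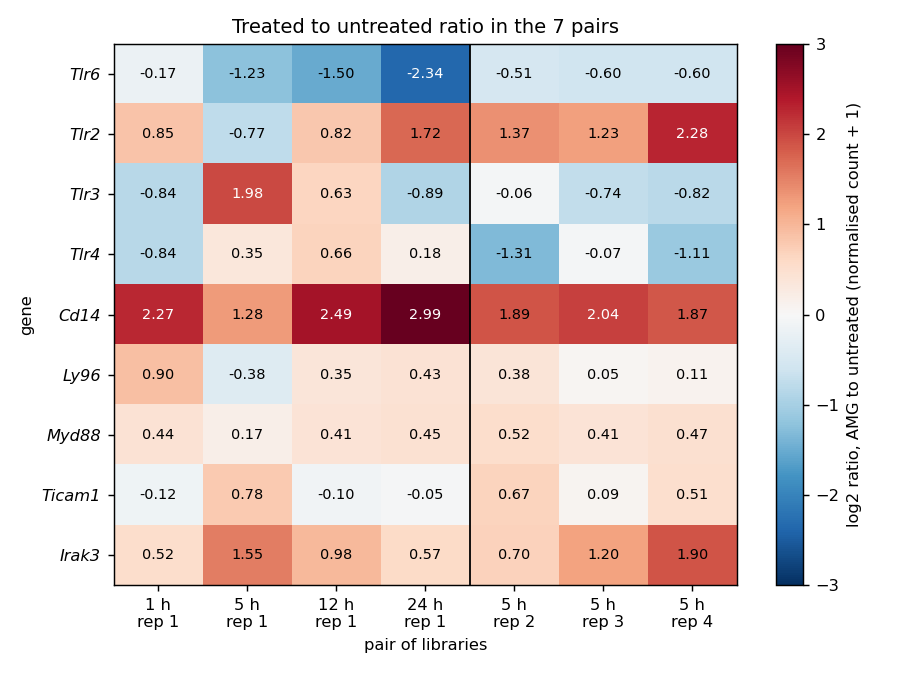
Log2 ratio of treated to untreated (normalised count + 1) for 9 genes in the 7 pairs of libraries, replicate 1 at 1, 5, 12 and 24 h left of the line and replicates 2 to 4 at 5 h right of it, red for higher and blue for lower with AMG. Tlr1, at 0 to 7 reads per library of replicate 1, is left out, and Cd14 ranged from 1.28 to 2.99 while Tlr6 ranged from -2.34 to -0.17.

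The remaining genes of the pathway were described from lists of related function. Among the other Toll-like receptors and receptor chaperones, 5 of 14 reached the level for testing at 5 h. In limma without the block 0 passed, with 1 at an unadjusted p under 0.05, 1 in DESeq2 and 0 in edgeR. With the block 1 passed (20.0% beside 37.2% of all genes), Tlr5, the flagellin receptor, which fell. Its mean was 70.8 untreated and 19.0 treated, a log2 fold change of -1.83 (SE 0.44, limma adjusted p = 0.0940 without and 0.00177 with the block), a gene named here after its values were seen. In replicate 1 the log2 ratio of Tlr5 was -0.75, -0.39 and -1.24 at 1, 12 and 24 h but 0.90 at 5 h. Of the 18 tested adaptors, kinases and ubiquitin ligases downstream of the receptors 0 passed in limma without the block (4 at an unadjusted p under 0.05, 1 in DESeq2 and 0 in edgeR). With the block 3 were higher (Ikbke, Traf3 and Ube2n) and 2 lower (Irak1 and Ripk1), in all 27.8% beside 37.2% of all genes, and the median log2 fold change was -0.02. Of 11 tested cytosolic sensors and their adaptors 0 passed in limma without the block (4 at an unadjusted p under 0.05, 3 in DESeq2, 0 in edgeR). With it 4 passed, a share of 36.4% that lies near the 37.2% of all genes. All 4 were higher, the NOD-like receptor genes Nlrp3 and Nod2 among them, which were named after their values were seen. Nod2 had a mean of 15.8 untreated and 165.5 treated, a log2 fold change of 3.37. Nlrp3 had a mean of 1.91 ± 2.21 untreated, with at most 8 reads in a library, and of 98.7 ± 102 treated (n = 3 each), so it entered the test only through the treated libraries.

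Irak3 belongs by function to the restraints of the pathway. Of 11 other restraints tested, 4 passed in limma without the block, all higher, beside 0.97% of all genes. With the block 6 were higher and 1 lower (Cyld), beside 17.9% and 19.3% of all genes, and the median log2 fold change was 1.18. No test compared this list with other genes, and it was chosen with earlier results of these data known. The 3 with the largest changes among the 4 were Nfkbia (3.79, SE 0.44, limma adjusted p = 0.0196), the cytoplasmic brake on NF-kB, Zc3h12a (3.59, SE 0.25, adjusted p = 0.00569), an RNase that degrades cytokine transcripts, and Tnfaip3 (2.89, SE 0.39, adjusted p = 0.0273), the ubiquitin-editing protein A20. Nfkbia and Tnfaip3 lost the call when treated replicate 2 or 4, among others, was left out, and Zc3h12a when treated replicate 2 was. Without treated replicates 2 and 4 the fit passed 1 and 6 of all 13096 genes.

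Products known to follow the MyD88 arm were higher with AMG. Of 11 tested, 7 passed in limma without the block and 11 with it, all higher, beside 0.97% and 17.9% of all genes. These counts are a description only, because Cxcl2, Ccl20, Nos2 and Ptgs2 were named by the study from these samples, and because 4 of the 11 (Il6, Tnf, Ccl20 and Nos2) had an untreated mean under 10 and entered the test only through the treated libraries. The 3 with the largest log2 fold changes among those that passed were the chemokine genes Ccl20 (9.20, SE 1.00, from a mean of 8.99 to 6859) and Cxcl2 (9.13, SE 0.95, from 14.4 to 10888) and the nitric oxide synthase gene Nos2 (8.36, SE 0.67, from 3.02, with at most 6 reads in a library, to 1261). For Cxcl2 the limma adjusted p was 0.0190. The calls of Ccl20 and Cxcl2 were lost without untreated or treated replicate 2 or 4, and that of Nos2 without treated replicate 2 or 4. Of all 13096 genes 10 and 9 passed without untreated replicates 2 and 4, and 1 and 6 without treated ones. Of 8 tested products of the TRIF and interferon arm 0 passed in limma without the block (3 at an unadjusted p under 0.05, 4 in DESeq2 and 0 in edgeR), and with it 3 were higher and 1 lower (50% beside 37.2% of all genes). The chemokine genes Ccl5 (6.13) and Cxcl10 (3.32) had the largest log2 fold changes of the 8, named after their values were seen, and both entered the test only through the treated libraries. Ifnb1, the interferon gene of that arm, was too low to be tested. Among proposed endogenous ligands of these receptors 0 of 8 passed in limma without the block, at an unadjusted p under 0.05, in DESeq2 or in edgeR, and with the block Tnc and Hspd1 were higher and Fn1 lower (37.5% beside 37.2%). Of the 11 leukocyte markers tested, 0 passed in either limma fit, at an unadjusted p under 0.05, in DESeq2 or in edgeR, with a median log2 fold change of 0.23. Of the 9 fibroblast markers 0 passed in limma without the block (2 at an unadjusted p under 0.05, 2 in DESeq2 and 0 in edgeR). With the block 6 were lower, 66.7% beside 19.3% of all genes. With the block Trp63 was lower among the 2 keratinocyte markers tested, and Tek, the 1 endothelial marker tested, was lower too. The share over all genes is again 19.3%.

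For each member the genes with the most similar course over the 14 libraries were found by Pearson's r on log2 values centred within each table, among 12844 genes. Cd14 was most like Glrx (0.97), Gch1 (0.97) and Il1a (0.96), the last encoding the cytokine interleukin 1 alpha. Irak3 was most like Lhfpl2 (0.92), the chemokine gene Ccl2 (0.91) and Gm9687 (0.91). Tlr2 was most like Cpa4 (0.87), Gja1 (0.86) and Gadd45a (0.85), and Tlr6 most like Limch1, Hey2 and Gadd45g (0.91, 0.91 and 0.90). Tlr3 came closest to Ahi1 (0.96), Tlr4 to Gatsl2 (0.95), Ticam1 to Top1mt (0.93), Myd88 to Acot7 (0.91) and Ly96 to Pold4 (0.90). The libraries share treatment, depth and composition, and these values are a description only.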

How the data were processed

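Stranded poly(A) libraries of 14 samples were sequenced by the authors, aligned to mm10 with TopHat2 2.0.13, reduced to uniquely aligned reads and counted per gene with HTSeq 0.5.3p3, as stated in the methods and the submitters' processing notes. The methods are those of a paper that reused results of this experiment from an earlier study, and they describe its own RNA sequencing. They were taken to apply here because the tool versions match the submitters' notes. The annotation release and strand setting are not given in the sources used here. What was deposited is a normalised signal for each gene: the authors divided counts by size factors, separately for replicate 1 (8 libraries) and replicates 2 to 4 (6 libraries). Dividing by the smallest step of a library returned whole reads for 100% of its values (tolerance 0.1).

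The sample titles gave groups and replicate numbers. Replicates 2 to 4 were compared on log2(normalised count + 1) by limma 3.58.1 (R 4.3.3, moderated with a trend), a scale that understates changes of low genes, for 13096 genes with a mean of at least 10, with Benjamini-Hochberg adjustment over all of them and a threshold of 0.05. The comparison was fitted without a block, since the methods of that paper name none, and with the replicate number as a block. Same-numbered libraries deviated together (r = 0.65, 0.76 and 0.70 over genes, against -0.59 to 0.12 for different numbers), so the number was used as a block. Both sets of r come from deviations around the same group means and are not independent. Whether same-numbered libraries came from the same cells is not stated. Alternatives were the count tests of edgeR 4.0.16 and DESeq2 1.42.0 run on reads recovered in this way, other pseudocounts, filters and scalings, a lowess correction for transcript length (GENCODE vM21, GRCm38) and leaving out libraries. The fits were tested on simulated data.

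All 10 members were named. Of the other lists, genes passing in limma without the block were named, at most the 3 with the largest change. Genes of these lists that passed only with the block were named after their values were seen. Of the genes most like a member, the first 3 at most were named. The members and lists were chosen with earlier results of these data known. Promoter windows came from RefSeq (GRCm38.p6). Reads carry no molecular identifiers, so intervals cover counting error only.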

Additional observations from a re-analysis of the deposited data

Results flagged for a closer look

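Among the 4 log2 ratios at 5 h, that of Tlr6 in replicate 1 was -1.23 and lay apart from the -0.51, -0.60 and -0.60 of replicates 2 to 4. Its gap to the nearest of the others was 0.867 of the range, above Dixon's 95% critical value for 4 values. Chance alone marks about 1 in 20 groups in this way, and 10 genes were searched.

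In replicate 1 the log2 ratios of Tlr2, Tlr3, Tlr4 and Ly96 had opposite signs at different times, with 1 pair of libraries per time, and the differences between times were not tested. Tlr2 was at 0.85, -0.77, 0.82 and 1.72 at 1, 5, 12 and 24 h. Tlr3 was at -0.84, 1.98, 0.63 and -0.89. Tlr4 was at -0.84, 0.35, 0.66 and 0.18. Ly96 was at 0.90, -0.38, 0.35 and 0.43.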

How the results depend on the processing

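The number of members past the threshold at 5 h depended on the replicate block. It was 0 without it and 6 with it (5 higher, 1 lower), and again 6 (5 and 1) with edgeR and the block and with the length correction and the block. DESeq2 gave 3 (all higher) and edgeR on all 4 replicates with the block 2 (both higher). Leaving out single libraries gave 0 to 3 members, of which 0 to 2 were higher and 0 to 1 lower. The 3 (Cd14, Tlr2 and Tlr4) came without treated replicate 3. Over all 13096 genes these fits passed 1 to 1146 higher and 0 to 1054 lower, the most without treated replicate 3. In an alternative chosen after seeing the data, the blocked fit gave 3, 6 and 4 members without replicates 2, 3 and 4. Of these 3, 5 and 3 were higher and 0, 1 and 1 lower. Of all 13096 genes it passed 724, 3269 and 1346 higher and 695, 3531 and 1328 lower. For the pathway lists, 11 genes passed in limma without the block, 35 with it, 25 with DESeq2, 39 with edgeR and the block, 18 with edgeR on all 4 replicates and 35 with length correction and block. Leaving out single libraries gave 0 to 23 of the pathway genes. It was 0 without treated replicate 2, 2 without treated replicate 4, 4 without untreated replicate 2 or 4 and 23 without treated replicate 3. Of all 13096 genes those fits passed 1 and 6 without treated replicates 2 and 4, and 10 and 9 without untreated ones. Without treated replicate 3 they passed 1146 higher and 1054 lower. The blocked fit gave 24, 43 and 27 pathway genes without replicates 2, 3 and 4. Ly96 at 5 h turned to -0.27 under length correction, with and without the block. In replicate 1 the members above a log2 ratio of 1 at 12 h numbered 2 instead of 1 after length correction. The cause of these differences was not tested. Low read counts limited Tlr1 throughout and Tlr3 in the untreated 5 h library of replicate 1, and 3 libraries per group limited every test.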
